A study of Mus musculus with 2 samples.

Results

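The cytosolic ribosomal protein genes encode the proteins of the ribosome that translates nuclear messages, and they were taken here as every gene of the table whose symbol starts with Rpl or Rps followed by a digit, together with *Rplp0*, *Rplp1*, *Rplp2* and *Rpsa*. Names with -ps, which mark pseudogenes, and the kinase genes starting with Rps6k were left out. The rule found 85 of 20198 genes, called members below. Of these, 77 encode the core proteins of the ribosome, 7 are paralogues (*Rpl22l1*, *Rpl39l*, *Rps27l*, *Rpl36al*, *Rpl3l*, *Rpl7l1* and *Rps27rt*), and 1, *Rps19bp1*, encodes a binding partner of RPS19 that is no ribosomal protein and entered by its name alone.

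Corneas of male mice aged 6 to 8 weeks were dissociated and their cells sequenced in droplets, with a library from unwounded corneas (UW) and a library from corneas taken 24 h after the central epithelium had been marked with a trephine and scraped off (W). Each library pooled 8 corneas of 4 mice, whose strain the methods do not name, and each condition had 1 library, so that no value has a replicate and the effect of wounding cannot be told apart from any other difference between the libraries. Epithelium was loosened with dispase and digested with trypsin, and the remaining tissue was digested with collagenase. The deposited tables hold fewer cells of each library than the paper's text gives, and the numbers here are of the deposited ones. The UW library held 16450 cells with 367166822 unique molecular identifiers (UMIs, each standing for 1 captured RNA molecule) and, at the median cell, 22014 UMIs from 3976 genes. The W library held 12417 cells with 289586482 UMIs, the median cell having 20290 UMIs from 3981 genes. The libraries had 52 cell barcodes in common, which is 0.316% of the UW cells and 0.419% of the W cells.

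Ribosomal proteins assemble with ribosomal RNA into a small subunit, which reads the message, and a large subunit, which joins the amino acids, and near equal amounts of most of them are needed. Their messages are among the most abundant of a growing cell, and in mammals most begin with a run of pyrimidines, the 5′ terminal oligopyrimidine motif, through which mTOR and LARP1 adjust their translation. In the corneal epithelium, cells divide in the basal layer and move outward as they differentiate, so that a pooled tissue holds cells with very different needs for protein synthesis.

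Cells were compared by the number of the deposited cluster. The tissue label was checked with marker genes. The summed level of 7 corneal epithelial markers was 58170 UMIs per 1000000 UMIs (CPM) in cluster 1 of UW and 52513 CPM in W, with *Krt12* at 41515 CPM in UW. The 6 stromal markers were at 77647 CPM in cluster 0 of UW and 39928 CPM in W, led by *Dcn*, and at 74666 CPM in cluster 10 of UW. All 7 epithelial markers also had counts in cluster 0, where they summed to 2323 CPM in UW, and the part of RNA from other cells in the values below was not tested. Cluster 10 carried stromal markers and, with *Col8a1* among its leading genes and 1110 CPM of the 4 endothelial markers in UW, was left without a cell type name. In UW and in W, 12 clusters (0 to 11) held at least 50 cells each, and clusters 13 to 16 did so only in W.

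Across all cells, members held 46227423 UMIs of UW, which is 12.6% of all UMIs, and 50458045 UMIs of W, which is 17.4%. At this depth the exact Clopper-Pearson 95% intervals of these shares are 12.587 to 12.594% and 17.420 to 17.429%, and they and all intervals below cover counting error only. Cells spread far more widely than the libraries did. The share per cell ran from 1.13 to 41.2% in UW, with a median of 11.2% and quartiles of 6.03 and 20.6%. In W it ran from 1.96 to 39.7%, with a median of 14.4% and quartiles of 9.86 and 22.6%.

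Clusters differed most in how much of their RNA the members took. Cluster 9, led by *Wfdc18* and *Dlk2*, had the highest share in both libraries, 27.3% in UW and 27.4% in W. Cluster 7, led by *Lce3a* and *Krt23*, had the lowest, 2.80% and 5.59%. The highest share was thus 9.75 times the lowest in UW and 4.90 times in W. When the 50 most abundant non-members were left out of the total, these became 5.44 and 2.89 times. The narrower range in W lay at its low end, as the share of cluster 9 was nearly the same in both libraries. In UW the order from high to low was clusters 9, 11, 3, 8, 1, 5, 4, 10, 0, 2, 6 and 7, and in W it was 9, 8, 11, 3, 5, 1, 0, 10, 4, 2, 6 and 7. Without the 50 most abundant non-members, all 12 clusters kept their place in UW and 6 of 12 in W, clusters 9 and 7 among them.

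Clusters with a low or middle share in UW mostly had a higher one in W. The share in cluster 6, led by *Upk3b* and *Psca*, was 4.14% in UW and 6.79% in W. Cluster 2, led by *Ly6g6c* and *Spink5*, had 6.79% and 8.87%. The stromal cluster 0, led by *Kera*, went from 10.5% in UW to 16.3% in W, and cluster 10 from 10.6% to 13.1%. In cluster 5, led by *Serpinb3a* and *Krt4*, the share was 13.0% in UW and 18.0% in W. Together with cluster 7 these are the clusters in which the share in W was clearly above that in UW. The 6 genes of a dissociation stress list moved as well, lower in W in all 12 clusters (7993 and 2665 CPM in cluster 0 of UW and W), and their part in the members' shares was not tested.

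In the other clusters the share moved little or downward. Cluster 3, led by *Krt18* and holding *Lamb3* and *Itgb4* among its leading genes, had 23.5% in UW and 20.1% in W. Cluster 11, led by the replication genes *Ung* and *Hells*, had 24.8% and 23.0%, and cluster 1, led by *Pygl*, 19.4% and 17.9%. The share was nearly level in the mitotic cluster 8, led by *Top2a*, at 22.9% in UW and 23.1% in W, and in cluster 4, led by *Cldn17*, at 12.4% and 12.1%. Among the clusters found only in W, cluster 16 (*Cd3g*) had 22.9%, cluster 14 (*H2-Aa*) 15.6%, cluster 15 (*Pf4*) 11.7% and cluster 13 (*Ccl3*) 11.7%.

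**Figure D1:**
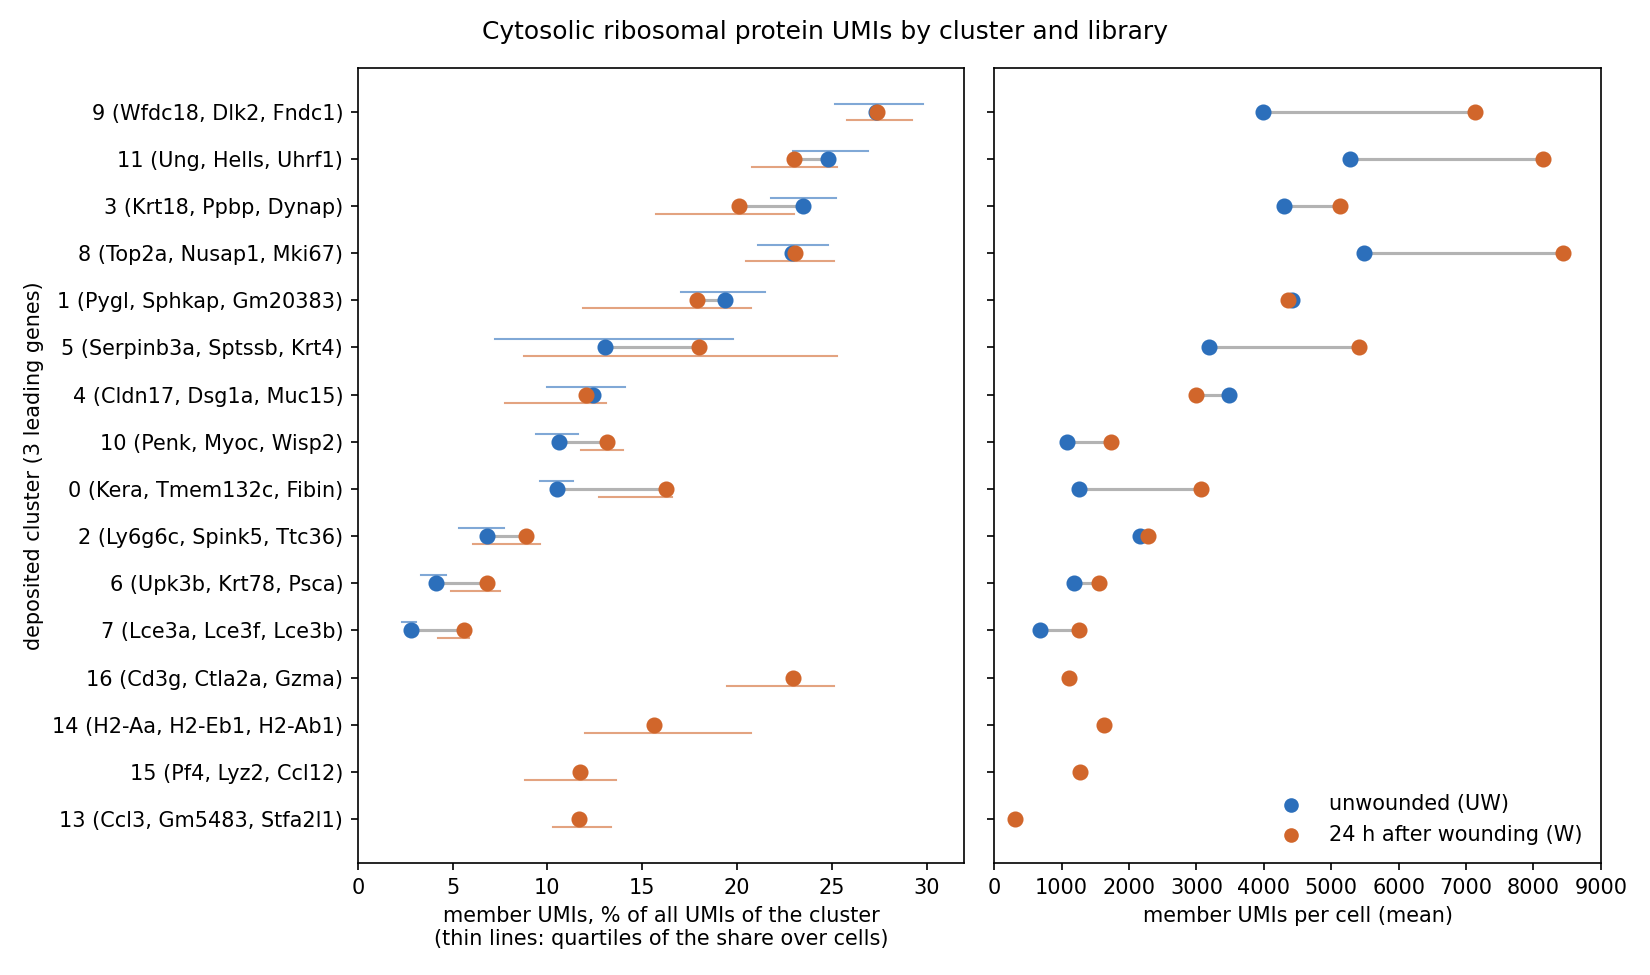
Left, member UMIs as a percent of all UMIs of each deposited cluster in UW (blue) and W (orange), with the quartiles of the share over cells as thin lines; right, the mean number of member UMIs per cell. The share is highest in cluster 9 (27.3 and 27.4%) and lowest in cluster 7 (2.80 and 5.59%), and clusters 13 to 16 had at least 50 cells in W only.

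A share falls when other RNA grows, so the number of member UMIs per cell was set beside it. In cluster 3 the share was lower in W, yet the mean number of member UMIs per cell was 4303 in UW and 5124 in W. Likewise cluster 11 went from 5271 to 8144 member UMIs per cell while its share was lower in W. In clusters 9 and 8, where the share was level, the numbers were 3994 and 7132, and 5479 and 8433. A level share in these clusters therefore went with deeper cells. Cluster 0 went from 1261 to 3069 and cluster 7 from 673 to 1264, so there both measures were higher in W. Only in clusters 1 and 4, of the 12, was the mean number lower in W, at 4423 and 4354 in cluster 1 and 3489.9 and 2997 in cluster 4. Total UMIs per cell also differ by capture and sequencing, whose part was not tested.

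Within clusters, cells were most uneven in cluster 5, where the share had quartiles of 7.23 and 19.8% in UW and 8.77 and 25.3% in W. Over its cells, the share had a Spearman correlation with the summed level of the 4 basal markers of 0.62 in UW (1100 cells) and 0.62 in W (1201 cells), and of -0.35 and -0.60 with the 3 conjunctival markers. These are descriptions across cells of 1 library each, whose values share the cell's depth. In cluster 0 the correlation of the share with the number of UMIs was -0.07 in UW and 0.53 in W, in cluster 4 it was 0.25 and 0.65, and in cluster 1 0.08 and 0.57. Depth and member share were thus tied more closely in W than in UW in these clusters. Across the 12 clusters, the share had a correlation of 0.92 in UW and 0.91 in W with the basal markers and of 0.77 and 0.90 with the 4 markers of DNA replication. It had one of -0.52 and -0.76 with the 4 superficial markers. With the 5 monocyte markers it was -0.83 and -0.91. In cluster 7, 4 of the 5 had counts in UW and all 5 in W, and they summed to 532 and 341 CPM, led by *Itgam*, against 11.7 and 20.6 CPM in cluster 9. With the percent of mitochondrial UMIs, a sign of RNA quality, it was 0.71 and 0.78 (4.38 and 3.24% in cluster 9, 1.58 and 1.65% in cluster 7). With the 4 melanocyte markers it was 0.87 in UW and 0.06 in W, at sums of no more than 4.15 CPM in any of these clusters and with 2 of the 4 seen in each cluster of UW. With the median number of genes per cell it was 0.40 and 0.88, and with that of UMIs per cell -0.25 and 0.56. The part of these in the share was not tested, and the 12 points of each library share that library and include the members in their total.

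To compare the conditions gene by gene, counts were summed over the cells of a cluster in each library, and the log2 ratio of CPM in W over UW was taken for each gene with a mean of at least 10 CPM over both sums and at least 20 counts. Such genes are called features, and a feature was said to rise or fall when its log2 ratio was at or past 0.5 in either direction. Of the 85 members, 82 were features in all 12 clusters and 1, *Rpl3l*, in none. The median log2 ratio of the members was above 0 in 9 of the 12 clusters and above the median of all features in 9. Both counts were 9 under TMM and size-factor scaling too, and the count above 0 was 8 with the mean over cells of the share and with core members only, where cluster 4 was below 0. These scalings moved the median of all features by up to 0.23 and 0.24, most in clusters 2 and 4, so ratios are given beside that median. The median over clusters of the members' median was 0.17, against -0.07 for all features. It was 0.29 under either scaling, where the median of all features lay between -0.01 and 0.00 in each cluster.

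In 6 clusters members rose and none fell, and these were the 5 with the lowest shares in UW and cluster 5, but not cluster 4, whose share lay between. In cluster 7 their median log2 ratio was 1.12, against 0.01 for all features, and 76 of 82 members rose, beside 27.5% of all features. No member fell there, beside 23% of all features. In cluster 6 the medians were 0.78 and -0.11, with 65 members rising (20.4% of all features) and 0 falling (27.2%). Clusters 7 and 6 thus moved the members as a group, well past the share of other genes. In cluster 0, with medians of 0.62 and -0.12, 59 of 84 members rose (11.5%) and 0 fell (20.1%). Cluster 5 had medians of 0.49 and -0.09, with 39 members rising (16.5%) and 0 falling (24.1%). Cluster 2 had medians of 0.41 and -0.24, with 29 rising (13.8%) and 0 falling (35%). In all of these clusters members rose more often than features did, and none fell. In cluster 10, at 0.29 and -0.05, 18 of 84 members rose (10.6%) and 0 fell (14.6%).

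In the other 6 clusters members moved on both sides. Cluster 8 had medians of 0.05 and -0.07, and 10 of 83 members rose (18.8% of all features) while 4 fell (24.7%). Cluster 9 had medians of 0.04 and -0.04, with 11 rising (20.7%) and 4 falling (22.8%). In these clusters fewer members passed the fold than features did. In cluster 4, at 0.01 and -0.24, 10 members rose (14.6%) and 8 fell (35.1%). TMM and size-factor scaling raised all ratios of cluster 4 by 0.23 and 0.24, which shifts its counts, and those of all features, toward rising. In cluster 1, at -0.09 and -0.07, 8 members rose (19.5%) and 12 fell (26.4%). Cluster 11, at -0.11 and 0.01, had 7 rising (24%) and 9 falling (22.9%). Cluster 3 had the lowest median, -0.20 against -0.02, with 4 members rising (23.1%) and 18 falling (24.4%). The share of members that fell in cluster 3 was near that of all features. Over the 12 clusters together, 336 of 997 pairs of member and cluster (33.7%) rose and 55 (5.52%) fell, beside 18% and 24.6% of the pairs of all features. With a fold of 1, 105 pairs (10.5%) rose and 0 fell, beside 6.43% and 7.53%. Of the 82 members that were features in all 12 clusters, 18 (22.0%) rose in at least 1 cluster and fell in at least 1 other, beside 11.5% of the 3508 genes that were features in all 12. Of features in at least 2 clusters, these were 18 of 84 members (21.4%), beside 9.73% of all such genes.

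The 2 subunits moved nearly together. The median of the large subunit members less that of the small subunit members lay between -0.03 and 0.20 over the 12 clusters. The ratio of summed large to small subunit UMIs lay between 1.25 and 1.58 in UW and between 1.26 and 1.48 in W. In both libraries the highest of these ratios belonged to cluster 7.

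Once the members' median of each cluster was subtracted, which gives a relative ratio, what remained was much alike between clusters. The spread (SD) of a member's ratio over the 12 clusters had a median of 0.41, and of 0.12 after the members' median was subtracted. With nothing subtracted, the median spread was 0.31 for the 3508 genes that were features in all 12 clusters. The spread between members of their median relative ratio was 0.36. Over the 66 pairs of clusters, the correlation of the members' relative ratios across 82 members had a median of 0.82, from 0.61 to 0.99. These values share their libraries, so an offset of a gene between libraries enters every cluster alike. In every cluster, 21 members stood above and 23 below the members' median. Beside 2.57% of the 3508 genes that were features in all 12 clusters and rose in each, 3 of 82 members did so, *Rps27rt*, *Rpl36al* and *Rps2*. Beside the 1.6% that fell in each, 0 members did.

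**Figure D2:**
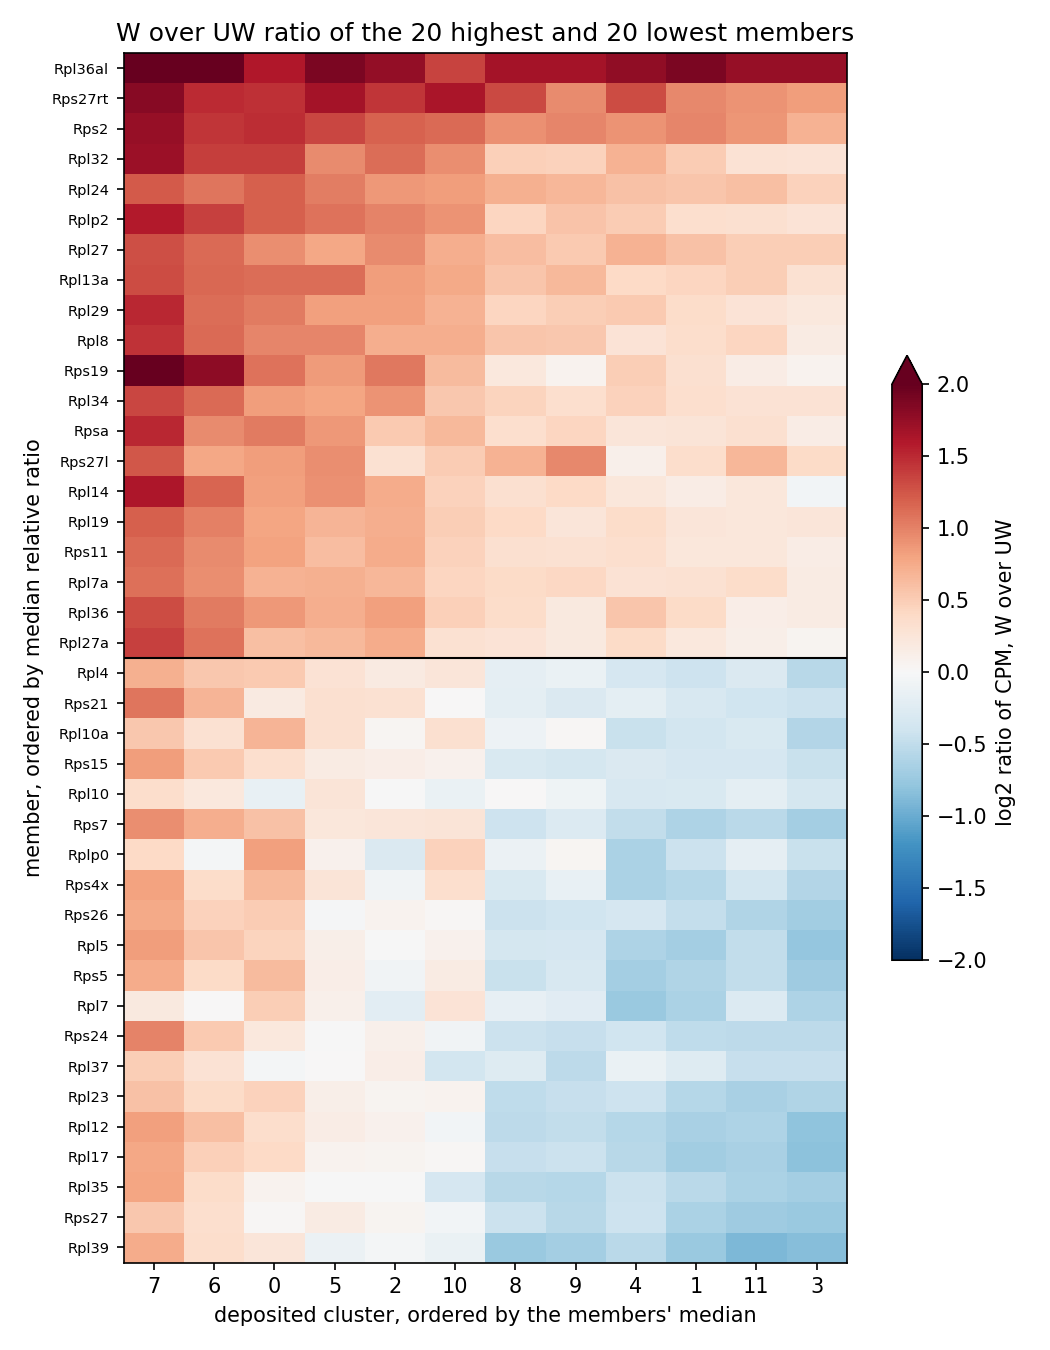
Log2 ratio of CPM in W over UW for the 20 members with the highest and the 20 with the lowest median relative ratio (the ratio less the members' median), with members in the order of that measure and clusters ordered by the members' median. Colours end at 2 on the log2 scale, so the higher values of *Rpl36al* in clusters 6 and 7 (2.08 and 2.16) and of *Rps19* in cluster 7 (2.16) carry the end colour. *Rpl36al*, *Rps27rt* and *Rps2* are high in every cluster, and the lowest lines are near 0 or below in most clusters.

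Among proteins of the small subunit, *Rps2*, which encodes a protein near the site where the message enters, had the highest relative ratio among the core members of both subunits. Its level in cluster 7 was 227 CPM in UW and 759.9 CPM in W. In cluster 9 it was 3939 CPM in UW and 7783 CPM in W, and the log2 ratios over the 12 clusters ran from 0.70 to 1.74. The W value was above the UW value in every cluster, and its median relative ratio was 0.86. Its share of member UMIs was 1.25% in UW and 2.58% in W. The 3′ end of *Rps2* shares 65.1% of its 100-base stretches with 29 other genes, so its count depends on how such reads were assigned.

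*Rps19*, whose protein is needed to mature the small subunit, was most uneven over the clusters of UW among the core members. Its share of member UMIs was 1.47% in cluster 9 and 0.478% in cluster 7 of UW, a 3.07-fold range, and in W it was 1.53% and 1.07%. Its level in cluster 7 was 134 CPM in UW (interval 130.2 to 138) and 599 CPM in W (585 to 613), and in cluster 9 it was 4007 and 4202 CPM. The ratio in cluster 7, 2.16, was the highest there after that of *Rpl36al*, while in cluster 9 it was 0.07. At the other end, *Rps13* and *Rps28* held a nearly constant part, with ranges of 1.16-fold and 1.19-fold over the UW clusters.

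*Rps27*, on chromosome 3, had a median relative ratio of -0.51, and its paralogue *Rps27rt*, on chromosome 9, one of 1.03. Their 3′ ends share 100-base stretches with 2 other genes each, among them the other of the pair, 69.1% of the stretches of *Rps27* and 89.5% of those of *Rps27rt*. *Rps27rt* was at 6.34 CPM in cluster 7 of UW and 22.4 CPM in W, and at 32.2 and 61.8 CPM in cluster 9. It was higher in W in all 12 clusters, and as a part of the UMIs of both genes it had a median of 1.22% in UW and 3.51% in W. *Rps6*, whose protein is the usual read-out of the kinase S6K, was not among the extremes. Its median log2 ratio was 0.25, with 5 clusters rising and 0 falling, and its share of member UMIs lay between 0.470% in cluster 7 and 0.975% in cluster 0 of UW. *Rps18*, often used as a reference gene, rose in 5 clusters, and its ratio ran from -0.36 to 1.06.

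In the large subunit, *Rpl32* and *Rpl24* had the highest relative ratios, 0.59 and 0.58, among its core members. *Rpl32* was at 414 CPM in cluster 7 of UW and 1349 CPM in W, and at 4242 and 5822 CPM in cluster 9. *Rpl24* was at 316 and 736 CPM in cluster 7 and rose in 11 of the 12 clusters. Neither gene was lower in W in any of the 12 clusters. *Rpl13a*, another gene used as a reference, had a relative ratio of 0.50 and rose in 8 clusters, from 22.3 CPM to 55.2 CPM in cluster 7 and from 308 CPM to 485 CPM in cluster 9.

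The lowest members by the same measure were large subunit genes apart from *Rps27*. *Rpl39*, whose protein lines the exit tunnel, had a median relative ratio of -0.58. It was at 457 CPM in cluster 7 of UW and 765 CPM in W, and rose there, but at 4464 and 2396 CPM in cluster 11, where its log2 ratio was -0.90. It rose in 1 cluster and fell in 6. *Rpl35*, *Rpl17* and *Rpl12* had relative ratios of -0.49, -0.45 and -0.43, each below 0 in every cluster. *Rpl12* and *Rpl32* share no 100-base stretch at the 3′ end with another gene.

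The stalk proteins that recruit elongation factors did not move alike. *Rplp2*, taken up after its values were seen, had a relative ratio of 0.52 and rose in 8 clusters, and that of *Rplp1* was 0.18. For *Rplp0*, the base of the stalk, it was -0.30. *Rplp0* was higher in W in cluster 0, at 2094 and 3714 CPM, and lower in W in cluster 4, at 3986 and 2584 CPM. Its median ratio was -0.08, which turned to 0.01 under both scalings. As a part of member UMIs it lay between 1.97% in cluster 10 and 5.09% in cluster 7 of UW, and between 1.94 and 3.35% in the same 12 clusters of W. *Rpl41* had a like pattern, at 3.07% in cluster 7 and 1.20% in cluster 9 of UW, so the mix of member UMIs differed between these clusters. *Rpl18* was the most constant, with a range of 1.12-fold.

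The 10 members with the most UMIs over both libraries together, *Rpl13* first, held 23.0% of member UMIs in UW and 22.8% in W. This ranking depends on both libraries, and *Rps2* is in it with 1.25% of member UMIs in UW and 2.58% in W. A UMI counts a molecule once whatever its length, so these counts were not divided by length. Capture may differ between genes, so orders of genes and parts of a pair are of counted UMIs only. *Rpl13* was at 614 CPM in cluster 7 of UW and 1423 CPM in W, and at 10028 and 8145 CPM in cluster 9. *Rps24* and *Rpl23* had relative ratios of -0.41 and -0.42, while those of *Rpl28* and *Rps12* were -0.05 and -0.13.

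Paralogues were set against the gene they resemble as a percent of the UMIs of both. *Rpl36al* and *Rpl36a* encode nearly the same protein, and among the pairs the part of *Rpl36al* differed most between the libraries in percentage points. It took 9.04% (8.93 to 9.15%) of the pair in UW and 22.7% (22.5 to 22.8%) in W over all cells. It was higher in W in all 12 clusters, with a median of 7.40% in UW and 24.3% in W, from 5.19% in cluster 9 to 27.4% in cluster 7 of UW and from 14.8% in cluster 0 to 45.8% in cluster 6 of W. *Rpl36al* was at 28.0 CPM in cluster 7 of UW and 126 CPM in W, and rose in all clusters, while *Rpl36a* had a median ratio of -0.07, which turned to 0.07 and 0.08 under TMM and size-factor scaling. Within the pair, the paralogue was thus the gene that rose throughout. The 3′ end of *Rpl36al* shares 74.1% of its stretches with 2 other genes.

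*Rps27l*, a p53 target, also took a larger part of its pair with *Rps27* in W in all 12 clusters, with a median of 17.7% in UW and 28.6% in W. Its own median log2 ratio was 0.68. *Rpl7l1* took a median of 1.66% in UW and 2.78% in W and was higher in 10 clusters, the exceptions being clusters 0 and 10, which held the stromal markers. *Rpl22l1* went the other way, with medians of 32.5% and 30.4% and a larger part in W in 2 of the 12 clusters. It was highest in cluster 6 of UW, at 41.5%.

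*Rpl39l* took 10.1% of its pair with *Rpl39* in cluster 0 of UW and 10.4% in W, and 9.97% and 9.65% in cluster 10. In the other 10 of the 12 clusters it took at most 0.331% in UW and 0.525% in W. Its part was higher in W in 11 of the 12 clusters, with a median of 0.0595% in UW and 0.193% in W. It was at 161 CPM in cluster 0 of UW and at 0.692 CPM in cluster 11. *Rpl3l*, known from heart and skeletal muscle, had 5 counts in UW and 33 in W, of which 27 in W lay in cluster 13, which had at least 50 cells in W only. Over the 12 clusters compared, it had 5 counts in UW and 4 in W. *Rps19bp1*, the member that is no ribosomal protein, was a feature in 11 clusters and rose in 6 of them.

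**Figure D3:**
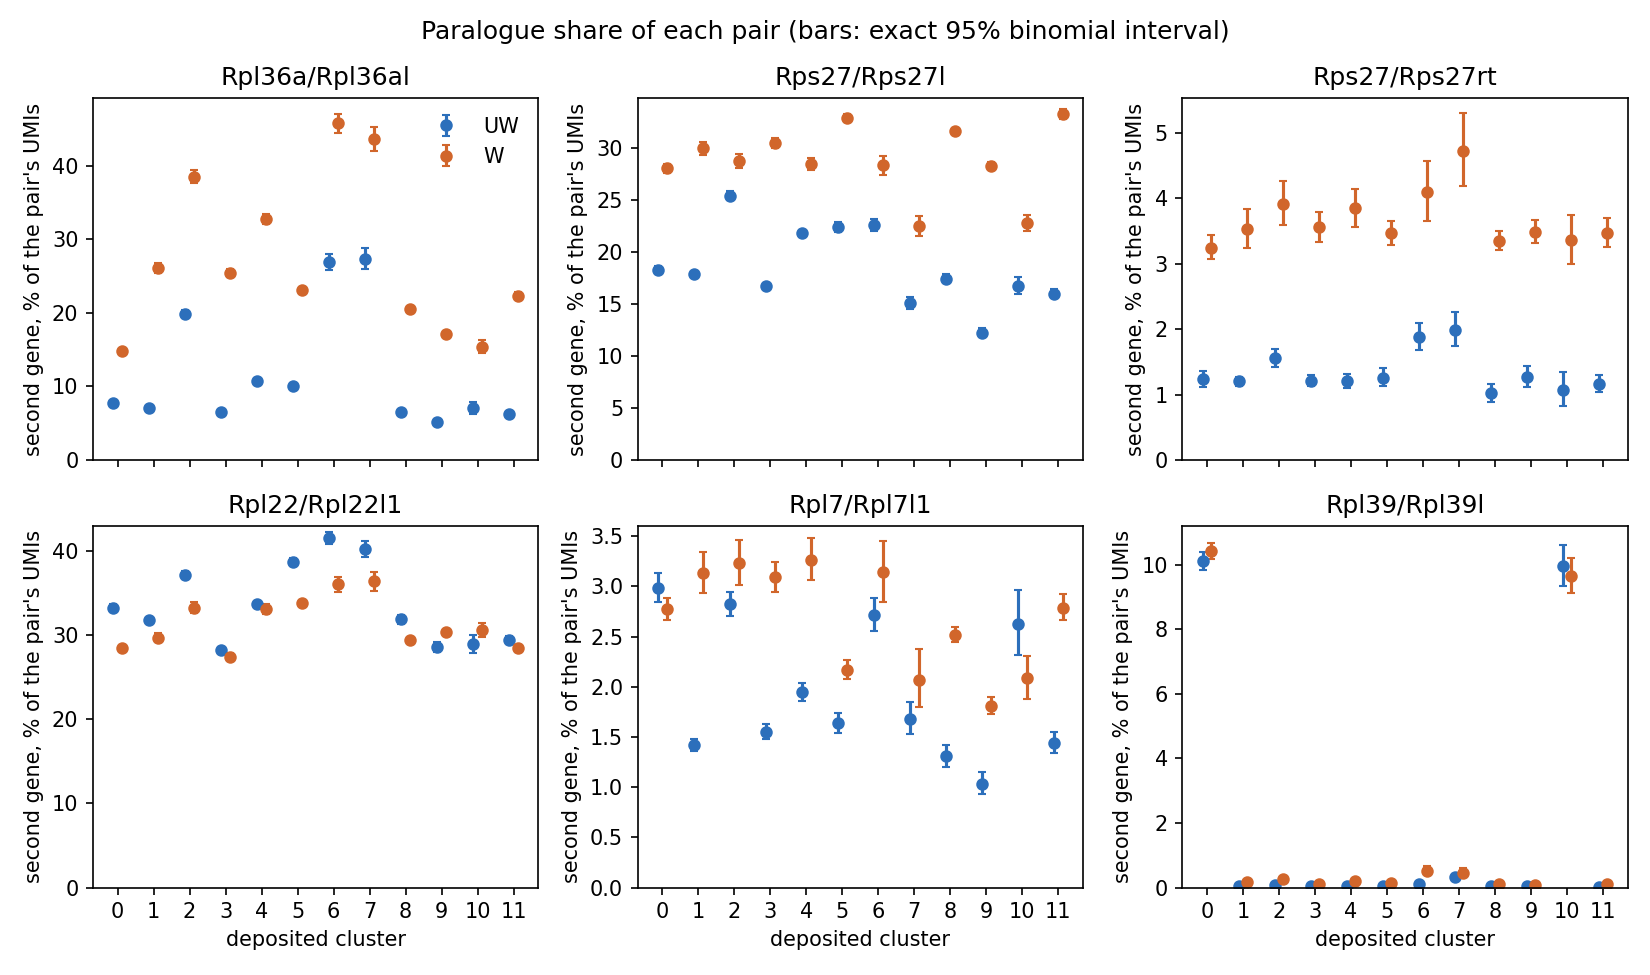
UMIs of the second gene as a percent of the UMIs of both genes of a pair, by deposited cluster, in UW (blue) and W (orange), with exact 95% binomial intervals as bars. *Rpl36al*, *Rps27l* and *Rps27rt* take a larger part in W in all 12 clusters, and *Rpl39l* exceeds 9% only in clusters 0 and 10.

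Genes outside the rule that belong to the ribosome were looked at beside it. *Fau*, which encodes a small subunit protein fused to a ubiquitin-like one, had a median log2 ratio of 0.01, and *Rack1*, a scaffold on the small subunit, had 0.32. Over the list of 9 partners of the ribosome, 43 of 104 pairs of gene and cluster (41.3%) rose and 14 (13.5%) fell, beside 18% and 24.6% of all features' pairs, with a median of medians of 0.38. *Npm1*, a nucleolar protein of ribosome assembly, rose in all 12 clusters, from 642 to 1546 CPM in cluster 9.

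The other parts of translation were set beside the pairs of all features, of which 18% rose and 24.6% fell. Over the 10 elongation genes, 30 of 117 pairs (25.6%) rose and 12 (10.3%) fell, with a median of medians of 0.17, the same as the members'. *Eef1a1* and *Eef2* had medians of -0.12 and -0.02, which turned to 0.01 and to 0.06 and 0.07 under the scalings. Over the 28 initiation genes, 57 of 334 pairs rose and 41 fell (0.13), and over the 50 genes of ribosome assembly 133 of 416 rose and 28 fell (0.37). *Fbl*, the methylase of ribosomal RNA, rose in all 12 clusters. Over the 19 genes of the mTOR and MYC control of translation, 31 of 172 pairs (18.0%) rose and 34 (19.8%) fell (-0.13). Here too the rising share was near that of all features. *Larp1* fell in 6 clusters. *Myc* rose in 6 of 11 clusters and fell in 1, with ratios from -0.78 to 3.64. *Eif4ebp1*, a repressor of initiation, rose in 11 of 12, while *Eif4ebp2*, a repressor of the same family, fell in 8 of 12, with ratios there from -1.71 to -0.62. No list's median of medians changed sign under TMM or size-factor scaling.

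Mitochondrial ribosomal proteins build a separate ribosome and served as a comparison. Of their 809 pairs of gene and cluster, 429 (53.0%) rose and 4 fell, against 33.7% and 5.52% of the members' pairs. Their median lay above 0 in all 12 clusters. Across clusters, however, the correlation of their median with the members' median was 0.01, while that of the elongation genes was 0.84. The other lists lay between these, ribosome partners at 0.48, initiation at 0.24, mTOR and MYC control at 0.21 and ribosome assembly at 0.09. A low correlation was thus not particular to the mitochondrial set. These correlations are over 12 clusters that share both libraries. The members and the mitochondrial set both had their highest median in cluster 7, 0.89 for the mitochondrial one. The lowest of the mitochondrial set was 0.19 in cluster 10, and the clusters otherwise came in a different order.

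The genes most like the members over the 24 sums of cluster and library were *Rack1*, *Eef1b2*, *Eif3f*, *Eef1d*, *Eif3k*, *Eef2*, *Mrpl52*, *Cct2*, *Eef1g* and *Nop53*, with correlations with the summed members from 0.99 to 0.96. The median over 1714 compared genes was 0.26. With UW sums alone, 6 of these 10 were again among the 10 most alike. The sums share libraries and cell states, and the total of each sum includes the members. For a member against the other members the median correlation was 0.98, and it was 0.98 as well over the 80 members with at least 20 CPM in every sum, of which *Rpl36al* (0.56) and *Rpl27* (0.88) had the lowest.

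Shared sequence limits how firmly single genes can be read. Ribosomal protein genes have many near-identical processed pseudogenes, and a read that fits several places equally cannot be counted for one. In the annotation, 52 of 85 members share a 100-base stretch of the last 400 bases with another gene, and 26 share at least 50% of these stretches. The median shared part was 15.0%. The 26 members with at least 50% shared had a median relative ratio of 0.05, with values from -0.51 to 1.51, and the 30 features with none shared had one of -0.02, with values from -0.43 to 0.59. The 3 members that rose in every cluster are all among the 26, and the part of shared sequence in their ratios was not tested.

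The members' starts were read from RefSeq promoters of the build GRCm38.p6, in which 65 of 85 members were matched with 77 entries. The motif searched was a C at the annotated start followed by at least 4 bases that are C or T, on the strand of the gene. It was found in 14 of the 77 entries, 18.2%, against 2.51% of 32851 promoters of all genes. A run of at least 7 C or T from 10 bases before to 20 after the start was found in 44.2% of the members' entries and 17.9% of all. Annotated starts may lie some bases from the used ones, so a missing motif says only that these letters are not at this place. The mitochondrial ribosomal protein genes had the motif in 0 of 75 entries. It was also found in 0 of 14 entries of the elongation list, 0 of 51 of ribosome assembly and 0 of 14 of mTOR and MYC control. Initiation genes had it in 2 of 24 entries and ribosome partners in 3 of 6.

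Some starts are shown because their genes stood at either end of the relative ratios or are read-out genes. Capitals mark the run of C or T that begins at the annotated start, which lies 10 bases into each window of 30 bases, and a window without capitals has another base there. *Rps6* (chr4:86857348-86857377, minus strand), *Rps27* (chr3:90213629-90213658, minus), *Rps27rt* (chr9:114982720-114982749, minus), *Rpl35* (chr2:39005112-39005141, minus), *Rplp2* (chr7:141447641-141447670, plus), *Rps2* (chr17:24720053-24720082, plus) and *Rpl36al* (chr12:69184048-69184077, minus) read as follows.
Rps6: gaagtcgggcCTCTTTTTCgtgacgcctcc
Rps27: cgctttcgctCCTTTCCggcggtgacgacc
Rps27rt: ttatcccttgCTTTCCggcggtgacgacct
Rpl35: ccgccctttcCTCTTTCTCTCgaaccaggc
Rplp2: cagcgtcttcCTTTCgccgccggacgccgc
Rps2: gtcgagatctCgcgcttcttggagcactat
Rpl36al: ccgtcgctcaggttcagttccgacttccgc
The motif was present in *Rps27* and *Rpl35*, which were low relative to the members, and in *Rps27rt* and *Rplp2*, which were high. It was missing from the windows of *Rps2* and *Rpl36al*. Of the other genes named for their place at either end, *Rpl39* and *Rpl12* (low) had a run but not the motif, and *Rpl24* (high) had neither. *Rpl17* (low) and *Rpl32* (high) were matched with no promoter entry.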

How the data were processed

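Droplet libraries of dissociated cornea, 1 UW and 1 W, were used as deposited. The authors' count matrix, in UMI counts per gene and cell without normalization, was made with Cell Ranger 3.1.0, and cells and genes were filtered and clustered in Seurat, according to the labels and the paper, whose text names a different version of the 10x kit (V2) than the labels (v3). The other deposited table gives per-cell values of the authors, such as library, cluster and doublet calls. The authors state that doublets were removed, and calls from the first run that remained in the table were left out in an alternative only. The members and lists were chosen with earlier results of these data known.

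Counts were summed by deposited cluster and library (at least 50 cells in each) and given per 1000000 UMIs (CPM). Shares have exact Clopper-Pearson and CPM exact Poisson 95% intervals. Features had a mean of at least 10 CPM and 20 counts, and the fold was 0.5 on the log2 scale. With 1 library per condition, no test or p was computed. Likeness was the Pearson correlation of log2(CPM + 1), for non-members with at least 20 CPM in every sum, and for all members. Genes named were the 10 members of highest CPM over both libraries, the 5 highest and 5 lowest by relative ratio, the 8 widest and 3 narrowest in share over UW clusters, all paralogues and their pairs, the member that is no ribosomal protein, 4 reference or read-out genes, the 10 most alike genes, the 3 highest and 3 lowest of each list, and 7 translation genes. *Rplp2* and the marker genes lie outside this rule, and *Rplp2* was chosen after its values were seen. Lists were elongation, ribosome partners, initiation, mTOR and MYC control, ribosome assembly and mitochondrial ribosomal proteins.

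Alternatives were TMM factors (edgeR 4.0.16), size factors (DESeq2 1.42.0, R 4.3.3), no filter on low values, a stricter cell filter (1000 genes or more, 5% mitochondrial UMIs or less), cells with at least 5000 UMIs, the mean over cells, totals without mitochondrial UMIs or without the 50 most abundant non-members, core members only, and a fold of 1. Starts came from RefSeq promoters, and shared ends from GENCODE transcripts. Functions were tested on simulated data. Tables and plots were made with numpy 2.4.6, scipy 1.17.1, pandas 2.3.3 and matplotlib 3.10.9 (Python 3.11.15).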

Additional observations from a re-analysis of the deposited data

Results flagged for a closer look

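Members that rose in at least 1 cluster and fell in at least 1 other numbered 18 of 85, a difference in direction between cell groups under the same comparison. All 18 were features in all 12 clusters, where they are 22.0% of 82 members, beside 11.5% of 3508 genes. *Rpl39* is 1 of them, with a log2 ratio of 0.74 in cluster 7 and -0.90 in cluster 11. With 1 library per condition the difference was not tested, and its cause was not tested.

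Columns named as pseudogenes of ribosomal proteins, which lie outside the rule, carried a signal. They were not among the members but stayed in the totals and among all genes compared with them. Their 8 columns summed to 118 CPM in UW and 314 CPM in W (43429 and 90957 counts). The sum was higher in W in all 12 clusters, with a median log2 ratio of 1.07. After the members' median of each cluster was subtracted, the median of this ratio over clusters was 0.95. The cause was not tested.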

How the results depend on the processing

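No paired analysis was possible because each condition had 1 library. The members' median log2 ratio was above 0 in 9 clusters under 7 of the alternatives and in 8 with the mean over cells and with core members only. Among the summary values compared, none past the fold changed sign under any alternative run, and single pairs of member and cluster were not compared. TMM and size-factor scaling shifted the ratios of a cluster by at most 0.23 and 0.24, less than the fold of 0.5. Under these scalings a ratio past the fold could not change sign, so its kept sign there says nothing about robustness.

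The median over clusters of the members' median, 0.17, was 0.29 under TMM and 0.29 under size factors, 0.17 without the filter on low values, 0.18 under the stricter cell filter, 0.15 as the mean over cells, 0.16 without mitochondrial UMIs, 0.15 without the 50 most abundant non-members, 0.17 in cells with at least 5000 UMIs and 0.15 for core members. With a fold of 1, 105 pairs rose and 0 fell, fewer by construction, beside 6.43% and 7.53% of all features' pairs. The highest over the lowest share was, in UW and W, 9.77 and 4.94 in cells passing the stricter filter, 9.91 and 5.11 as the mean over cells, 10.04 and 4.98 without mitochondrial UMIs, 5.44 and 2.89 without the 50 most abundant non-members, 9.76 and 4.91 in cells with at least 5000 UMIs, 9.78 and 4.91 for core members, and 9.82 and 4.91 without the remaining doublet calls. Clusters 9 and 7 kept the highest and lowest share under each of these. Large less small subunit was 0.10 for core members. *Rpl36al* made up 22.4% of its pair in W in the stricter cells. Of the 10 most alike genes, 6 were among those of UW alone. Apart from the fold of 1, the cause of these shifts was not tested. Depth limits the genes with few counts, *Rpl3l* above all.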
